A study of Mus musculus with 26 samples.

Results

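The genes described here encode the nuclear part of the mitochondrial respiratory chain and ATP synthase, and they were followed through NKT cell development in the mouse thymus. Members were all genes whose symbol begins with Ndufa, Ndufb, Ndufc, Ndufs, Ndufv, Uqcr, Cox4 to Cox8 or Atp5, together with Sdha, Sdhb, Sdhc and Sdhd. The names gave 90 genes of 23168 with a value in every library, and 84 of them reached 1 FPKM (fragments scaled to transcript length and to the mapped fragments of the library) in at least 4 libraries, as did 11663 genes in all. By role, 36 of the 84 are subunits of complex I, 4 of complex II, 8 of complex III, 11 of complex IV and 15 of complex V, 2 are tissue isoforms of complex IV, and 8 are not subunits. That last group holds the complex I assembly factors Ndufaf1 to Ndufaf4, the supercomplex factor Cox7a2l, and Cox4nb, Atp5s and Atp5sl. The 6 genes that missed the limit were tissue isoforms too: Cox4i2, Cox6a2, Cox7b2, Cox8b, Cox8c and Ndufa4l2. Of these, Cox6a2 came nearest, at 0.649 FPKM in the library ranked 4 from the top, and Atp5s was the member closest above the limit, at 3.21 FPKM by the same measure.

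The respiratory chain passes electrons from NADH (complex I) and succinate (complex II) through complexes III and IV to oxygen, pumps protons, and lets complex V make ATP from the proton gradient. Most subunits are encoded in the nucleus, and a small core is encoded by mitochondrial DNA. None of the 13 mitochondrial protein genes was among the rows of the files, so only the nuclear side could be described. In lymphocytes the chain is known to be built up when cells grow and divide, and resting cells carry less of it.

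Libraries came from C57BL/6 thymocytes of animals aged 6 to 8 weeks, all purified by magnetic and flow sorting. DN1eP-NKT cells (4 libraries) carried the Vα14Jα18 receptor and, by their source name, came from DN1eP precursors. Culture is given as 10 days on OP9/Dll-1 stroma with IL-2 and IL-7, each at 5 ng/ml, by a protocol that stands on the labels of all samples and speaks of DN1eP cells. Thymic NKT cells of stage 1 (NKT-1, 5 libraries), stage 2 (NKT-2, 7) and stage 3 (NKT-3, 6) carried the same receptor, and DN1eP precursors (4) lacked it. Nothing in the labels says whether libraries of a group came from separate animals, so p-values measure only the spread between libraries. Groups were compared inside 2 library sets, which differ strongly from each other. The set called here the culture set held DN1eP-NKT 1 to 4, NKT-1 1 and 2, NKT-2 1 to 4 and NKT-3 1 to 3. The precursor set held NKT-1 3 to 5, NKT-2 5 to 7, NKT-3 4 to 6 and DN1eP 1 to 4.

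Promoter sequence, from 250 bases before to 50 after a gene's start, was available from RefSeq (GRCm38.p6) for 72 of the 84 members, whereas the expression files use mm9. Short motifs of factors long tied to respiratory genes were searched on both strands: GCGCATGCG for NRF1, CCGGAAG for the ETS factors that include GABPA, and AAGATGGCG for YY1. The NRF1 letters were in the promoter of 12.5% of the matched members, against 1.95% of all 27025 genes with a promoter in the table. The ETS letters were in 23.6% of members, against 9.93% of all genes, and the YY1 letters in 11.1% of members, against 1.64%. Members had to pass the FPKM limit, whereas the genes in the table were taken whether expressed or not. The shares among the 11663 genes tested were not computed, so the gaps may reflect expression as well as role. The promoters below belong to genes whose values recur in the results: Ndufc1, Uqcrc1 and Atp5j, which were lower in stage 3 than in stage 1 in both library sets and hold a motif, Uqcr10, which was lower too and holds none, Uqcr11, which was higher in DN1eP-NKT cells, and Cox7a2l, which was lower in thymic cells than in DN1eP while most members were higher. Ndufc2, Atp5b and Atp5g3, also called lower in stage 3 than in stage 1 in both sets, hold none of the motifs either and are not printed. Uqcrq and Atp5a1, the remaining genes called lower in both sets, had no promoter in the table. Each promoter below is printed 5′ to 3′ on the gene's strand, with motif letters in capitals.
Ndufc1, chr3:51408906-51409205, minus strand, with the YY1 letters: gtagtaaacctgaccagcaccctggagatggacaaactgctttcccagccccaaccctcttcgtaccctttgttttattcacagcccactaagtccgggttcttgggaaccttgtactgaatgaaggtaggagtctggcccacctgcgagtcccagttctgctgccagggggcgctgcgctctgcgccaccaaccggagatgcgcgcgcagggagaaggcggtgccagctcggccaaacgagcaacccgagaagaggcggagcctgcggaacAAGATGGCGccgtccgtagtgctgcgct
Uqcrc1, chr9:108936398-108936697, plus strand, with the NRF1 letters on both strands, overlapping: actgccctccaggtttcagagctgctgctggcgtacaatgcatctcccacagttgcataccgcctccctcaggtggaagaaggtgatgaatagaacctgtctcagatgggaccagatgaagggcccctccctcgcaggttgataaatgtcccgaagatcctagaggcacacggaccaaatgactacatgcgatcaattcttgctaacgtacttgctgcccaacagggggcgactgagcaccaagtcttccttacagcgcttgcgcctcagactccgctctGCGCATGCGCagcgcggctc
Atp5j, chr16:84834927-84835226, minus strand, the start with the YY1 and ETS letters: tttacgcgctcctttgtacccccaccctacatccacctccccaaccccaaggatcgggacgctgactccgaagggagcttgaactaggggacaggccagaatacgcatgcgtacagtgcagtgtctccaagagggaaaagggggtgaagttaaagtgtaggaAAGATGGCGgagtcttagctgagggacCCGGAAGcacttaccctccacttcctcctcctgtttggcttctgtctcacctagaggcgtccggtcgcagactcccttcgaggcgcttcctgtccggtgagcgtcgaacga
Uqcr10, chr11:4704295-4704594, minus strand, with none of the motifs: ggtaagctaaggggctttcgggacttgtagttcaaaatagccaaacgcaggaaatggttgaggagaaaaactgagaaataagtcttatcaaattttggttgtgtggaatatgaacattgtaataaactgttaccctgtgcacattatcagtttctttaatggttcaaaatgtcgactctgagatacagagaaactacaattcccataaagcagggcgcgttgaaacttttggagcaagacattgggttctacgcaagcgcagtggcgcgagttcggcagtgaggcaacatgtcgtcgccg
Uqcr11, chr10:80406772-80407071, minus strand, with the ETS and NRF1 letters: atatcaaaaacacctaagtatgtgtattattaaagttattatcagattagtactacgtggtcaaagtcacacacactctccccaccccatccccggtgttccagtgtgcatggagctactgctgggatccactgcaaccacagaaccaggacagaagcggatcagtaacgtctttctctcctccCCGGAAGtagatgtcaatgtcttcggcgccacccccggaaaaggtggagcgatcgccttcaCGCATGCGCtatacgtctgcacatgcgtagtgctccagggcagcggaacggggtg
Cox7a2l, chr17:83514284-83514583, minus strand, with none of the motifs: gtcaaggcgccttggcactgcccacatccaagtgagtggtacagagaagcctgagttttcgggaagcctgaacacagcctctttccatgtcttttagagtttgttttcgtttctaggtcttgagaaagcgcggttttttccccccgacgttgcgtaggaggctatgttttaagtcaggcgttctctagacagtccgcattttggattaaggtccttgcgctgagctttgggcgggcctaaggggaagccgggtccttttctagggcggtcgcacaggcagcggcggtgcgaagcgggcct
In the precursor set, 19 of 29 members with any of the 3 motifs and 24 of 43 with none passed the test as lower in stage 3 than in stage 1, beside 20.1% of all genes, with median log2 differences of -0.81 and -0.76. Most calls of that comparison were lost when the libraries high in Mir682, described next, were modelled or left out, as given with the stage results. A match is a description of these letters and says nothing of binding.

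Precision differed between libraries. Read totals are not given in the files, but the deposited interval around a member's FPKM had a median half-width of 3.31% to 4.34% in the thymic libraries of the precursor set and in DN1eP library 1 (4.06%). It was 13.8% to 21.0% in DN1eP libraries 2 to 4, 6.20% to 6.82% in the first library of stage 1, of stage 2 and of DN1eP-NKT, and 13.0% to 23.1% in the rest of the culture set. Within the precursor set, NKT-2 libraries 6 and 7 and NKT-3 libraries 5 and 6 stood apart: Mir682 read 68980 to 107000 FPKM there, against 0 to 1079 FPKM elsewhere, and their total FPKM was lower, at 594900 to 643700, against 808400 to 880200 in the other thymic libraries of that set. NKT-2 library 6 and NKT-3 library 5 also held transcripts of other cell types. Their B cell markers summed to 136 and 40.9 FPKM, against 0.0675 to 10.6 FPKM in the other thymic libraries of that set, and their myeloid markers to 66.5 and 26.6 FPKM, against 0.405 to 14.3 FPKM. Their erythroid markers summed to 199 and 827 FPKM, against 0 to 14.2 FPKM. Markers of T and NKT cells were read beside the labels. In the precursor set, the CD3 subunit gene Cd3e stood at 806 to 1431 FPKM in thymic NKT libraries, against 1117 to 1538 FPKM in DN1eP. DN1eP cells were sorted without the NKT receptor, which Cd3e alone does not report. Zbtb16, which encodes the NKT lineage factor PLZF, stood at 4.51 to 6.90 FPKM in DN1eP-NKT cells, against 12.8 to 113 FPKM in thymic NKT cells of the culture set.

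Members made up a sizeable part of expression in every group, and least in stage 3 among thymic cells. In the culture set they took 2.17% to 2.33% of total FPKM in DN1eP-NKT cells, 2.22% and 2.41% in stage 1, 2.20% to 2.37% in stage 2 and 1.65% to 1.71% in stage 3. The share in the precursor set was 3.88% to 4.28% in stage 1, 3.39% to 4.15% in stage 2, 2.60% to 3.10% in stage 3 and 2.35% to 2.98% in DN1eP. The stage 3 libraries lay below every stage 1 and stage 2 library of their own set, in both sets.

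**Figure D1:**
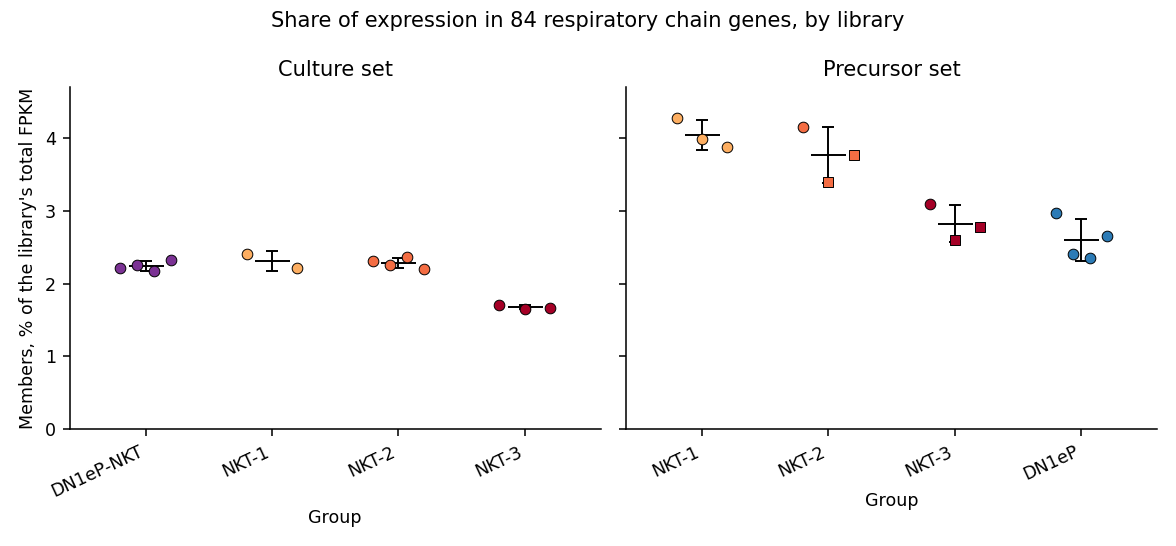
Share of each library's total FPKM taken by the 84 members, in percent, by group, with the culture set on the left and the precursor set on the right. Points are libraries, squares are the 4 libraries high in Mir682, and bars are the mean ± SD; stage 3 sits at 1.65% to 1.71% in the culture set and 2.60% to 3.10% in the precursor set, below stages 1 and 2.

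Levels per length spanned a wide range within each complex. In complex I the mean over 26 libraries ran from 20.7 FPKM for Ndufa11 to 714 FPKM for Ndufa3, both accessory subunits. Complex III ran from 47.6 FPKM for Uqcrfs1, the Rieske iron-sulfur protein, to 706 FPKM for Uqcrh, the hinge protein. Complex IV ran from 150 FPKM for Cox7b to 715 FPKM for Ndufa4, which was named as a complex I gene but belongs to complex IV. In complex V, Atp5d (delta subunit) averaged 117 FPKM and Atp5e (epsilon subunit) 954 FPKM. Complex II had the narrowest range, from 93.2 FPKM for Sdhc to 202 FPKM for Sdhb. Many of these genes have processed pseudogenes in the mouse, and no source used here states how shared reads were assigned. Ndufs5 ran from 0.000377 to 104 FPKM over libraries, with very low and high values inside the same groups, and no test on it alone is described.

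Most members lay lower in stage 3 than in stage 2 in both library sets, though few passed the test one by one. In the culture set 16 of 84 members passed the test as lower in stage 3 and 0 as higher, where 12.9% of all genes tested were called lower and 8.64% higher. For the precursor set the count was 7 lower and 0 higher, beside 7.89% of all genes lower and 3.78% higher. That share of members was near the share of all genes. The direction was more general than the calls: 78 of 84 members lay below 0 in each set, 75 of them in both, with median log2 differences of -0.45 and -0.42, against -0.03 and -0.07 for all genes. In the culture set 40 members had all stage 3 libraries below all stage 2 libraries, beside 20% of all genes, and in the precursor set 19, beside 16.7%. In bulk RNA, fewer cells of a type and less RNA per cell cannot be told apart. Tests were limma fits on log2(FPKM + 1), adjusted over all 11663 genes, and folds on that scale understate the change of low genes. In the precursor set, upper-quartile scaling turned the calls over all genes from 441 higher and 920 lower into 718 higher and 754 lower, and the members called into 0 higher and 3 lower.

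Ndufc2, a membrane-arm subunit of complex I (mm9 chr7:104548513-104556310), Uqcr10, a small subunit of complex III (chr11:4601971-4604347), and Atp5g3 (chr2:73746507-73749351), which encodes the c subunit of the ATP synthase rotor, passed the test in both sets. In the culture set Ndufc2 read 57.7, 67.5 and 61.3 FPKM in stage 3, against 106, 173, 135 and 125 FPKM in stage 2 (log2 difference -1.08 ± 0.24 SE, limma adjusted p = 0.00163). The precursor set gave 239, 142 and 178 FPKM in stage 3, against 420, 242 and 338 FPKM in stage 2 (-0.83 ± 0.26, limma adjusted p = 0.0343). No stage 3 library reached a stage 2 library in either set.

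Uqcr10 read 162, 149 and 155 FPKM in stage 3 of the culture set, against 205, 410, 292 and 430 FPKM in stage 2 (-1.04 ± 0.25, limma adjusted p = 0.00347). Its stage 3 libraries in the precursor set read 439, 306 and 359 FPKM, against 855, 578 and 587 FPKM in stage 2 (-0.86 ± 0.27, limma adjusted p = 0.0361). Atp5g3 averaged 380 ± 35.3 FPKM in stage 3 of the culture set (SD, n = 3), against 709 ± 132 FPKM in stage 2 (n = 4), and 299 ± 28.3 FPKM, against 479 ± 94.3 FPKM, in the precursor set (n = 3 each). Its groups did not overlap in either set, and its adjusted p from limma was 0.00224 and 0.0458.

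**Figure D2:**
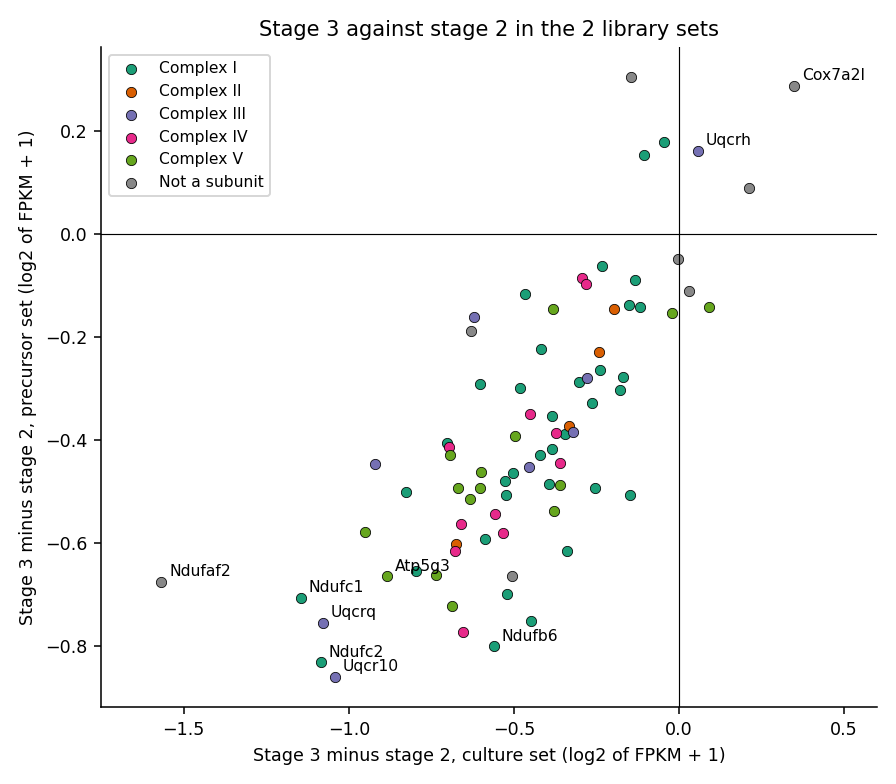
Stage 3 minus stage 2 in the culture set (x axis) and in the precursor set (y axis), as differences of log2(FPKM + 1), for 81 of the 84 members; Ndufs5, Cox7a1 and Cox6b2, with libraries at or near 0, are left out. Points are genes coloured by complex; most lie below 0 on both axes, and Cox7a2l lies at the upper right.

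By complex, 4 of 36 subunits of complex I and 1 of 4 of complex II were called lower in stage 3 of the culture set. Complex III had 4 of 8, complex IV 1 of 11 and complex V 5 of 15. The share of all genes called lower was 12.9%, and complexes I and IV lay below it. The median log2 differences were -0.41, -0.29, -0.54, -0.53 and -0.60 from complex I to V, against -0.03 for all genes. All 36 complex I subunits lay below 0, as did 6104 of all 11663 genes. Uqcrq, another small complex III subunit, averaged 105 ± 6.23 FPKM in stage 3 (SD, n = 3) and 229 ± 63.4 FPKM in stage 2 (n = 4), a log2 difference of -1.08 ± 0.26 SE with a limma adjusted p of 0.00319. Ndufc1 of complex I fell by 1.15 on the log2 scale (limma adjusted p = 0.00116), and the assembly factor Ndufaf2 fell by 1.57 at only 5.10 FPKM in stage 3, against 16.2 FPKM in stage 2. Ndufb6 and Ndufs4 of complex I were called lower in the precursor set besides the 3 shared genes, with falls of 0.80 and 0.70, and so were the low genes Ndufaf4 and Cox7a1. Cox7a1, the heart and muscle isoform, was listed at 0 in a stage 3 library of that set and at 0.683 and 0.418 FPKM in the others, against 10.8, 6.14 and 5.57 FPKM in stage 2.

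Cox7a2l and Uqcrh did not lie below 0 in either set. Cox7a2l is described as a factor in the association of complexes III and IV into supercomplexes, and its function in these animals was not examined. It read 337, 340 and 378 FPKM in stage 3 of the culture set, against 257, 288, 262 and 296 FPKM in stage 2, and 358, 283 and 282 FPKM, against 273, 233 and 247 FPKM, in the precursor set. Every stage 3 library lay above every stage 2 library in both sets, as for 15.5% of all genes in the culture set and 8.85% in the precursor set, but the log2 differences of 0.35 ± 0.16 SE and 0.29 ± 0.18 did not pass (limma adjusted p = 0.139 and 0.362). Uqcrh differed by 0.06 ± 0.24 and 0.16 ± 0.25 (limma adjusted p = 0.913 and 0.809), and its libraries overlapped.

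**Figure D3:**
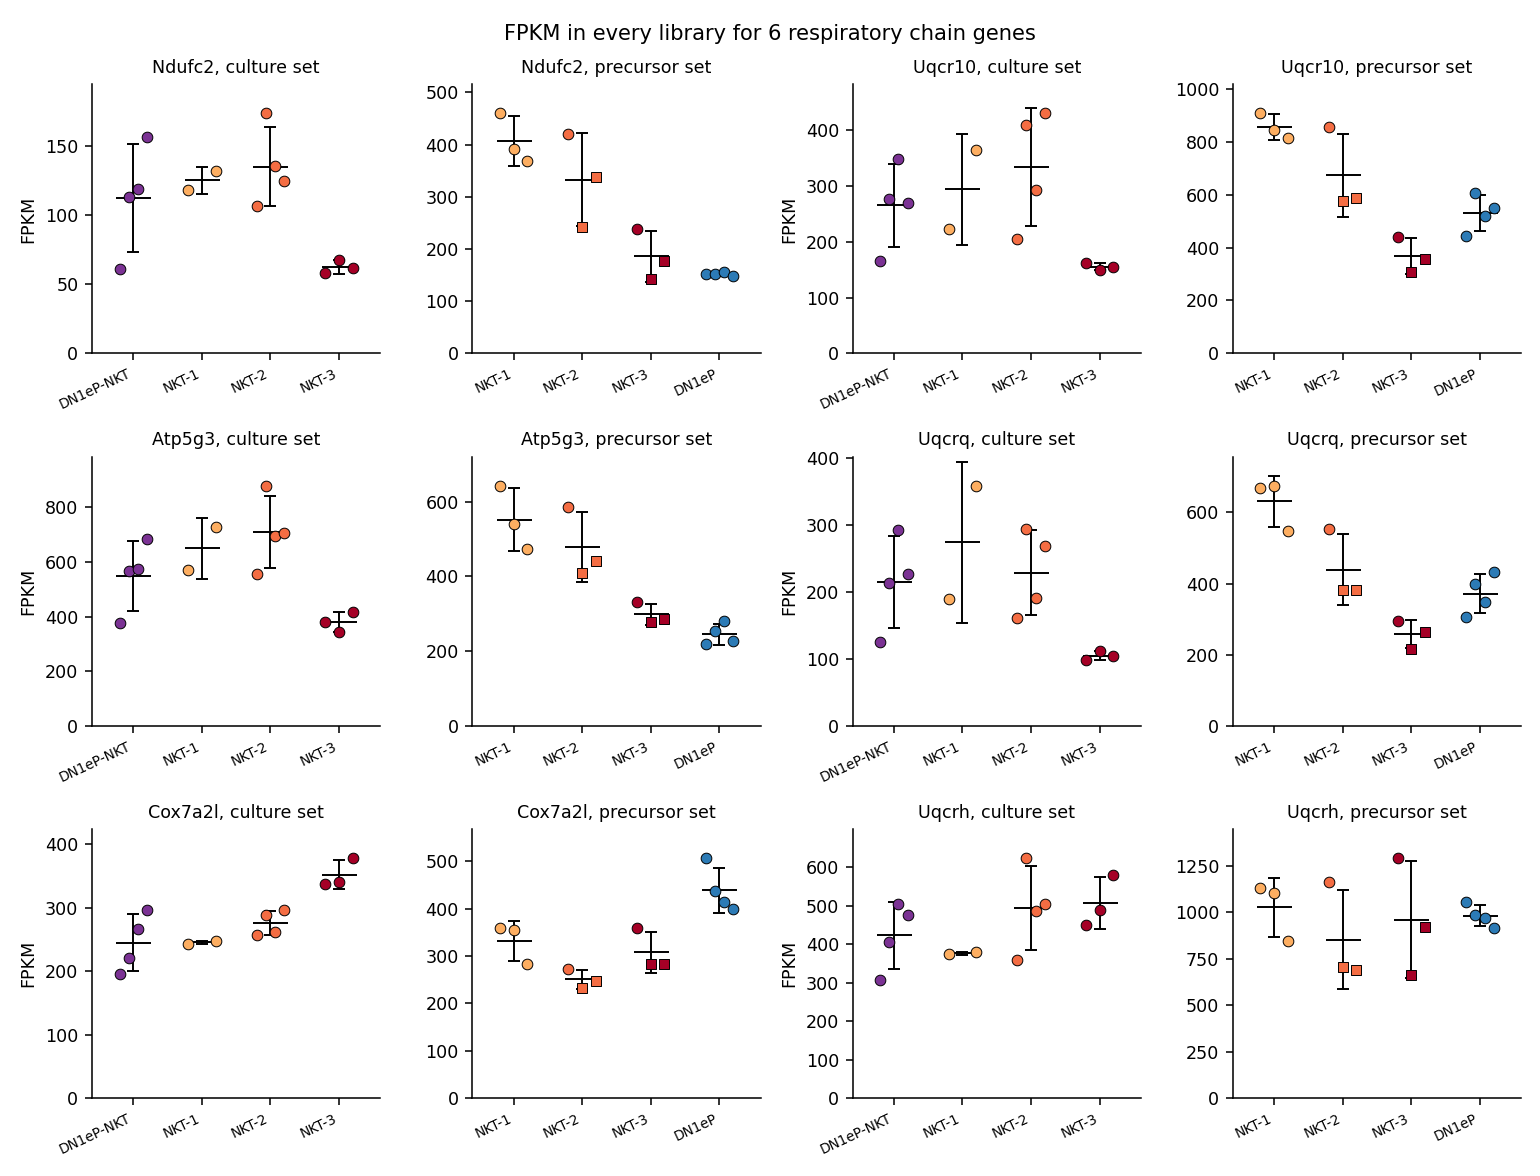
FPKM of Ndufc2, Uqcr10, Atp5g3, Uqcrq, Cox7a2l and Uqcrh in every library, with a panel for each gene and library set; y axes differ between panels. Points are libraries, squares are the 4 libraries high in Mir682, and bars are the mean ± SD; the first 4 genes are lowest in stage 3 among thymic cells, while Cox7a2l reaches 337 to 378 FPKM in stage 3 of the culture set.

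Stage 3 of both sets also carried few transcripts of dividing cells. The sum of Mki67, Top2a and Cdk1 was 13.1 to 22.3 FPKM in stage 3 of the culture set, against 234 to 308 FPKM in stage 2 and 252 and 348 FPKM in stage 1. The precursor set had 22.3 to 25.5 FPKM in stage 3, against 117 to 206 FPKM in stage 2 and 163 to 192 FPKM in stage 1. Erythroid markers were higher in stage 3 of the precursor set, at 14.1 to 827 FPKM, against 0 to 199 FPKM in stage 2 and 0.0588 to 1.74 FPKM in stage 1, and read 0 in stage 3 of the culture set. The part of either in the lower member levels was not tested. The calls of the precursor set rested on few libraries: the count was 0 without NKT-2 library 5 or without NKT-3 library 6, 1 without NKT-3 library 5, 3 without NKT-2 library 7, 12 without NKT-2 library 6 and 13 without NKT-3 library 4. Without both libraries with B cell markers, NKT-2 library 6 and NKT-3 library 5, it was 1, and for stage 3 against stage 1 it was 35. Leaving out DN1eP-NKT library 1, which enters only through the shared spread, gave 11. With high Mir682 as a term, added after seeing the data, it was 15, with the same median of -0.42. With the 4 libraries high in Mir682 left out, stages 2 and 3 each kept 1 library, too few to judge the calls, and the median was -0.45.

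Most members lay lower in stage 3 than in stage 1 as well. In the culture set 11 of 84 members were called lower in stage 3 and 0 higher, beside 14% of all genes lower and 8.14% higher. In the precursor set 52 were lower and 0 higher, beside 20.1% of all genes lower and 5.24% higher, and all 84 lay below 0. The medians were -0.42 and -0.79, against -0.08 and -0.22 for all genes. All stage 3 libraries lay below all stage 1 libraries for 52 members in the culture set, beside 31.4% of all genes, and for 64 in the precursor set, beside 30% of all genes. Called lower in both sets were Ndufc1 and Ndufc2 of complex I, Uqcr10, Uqcrq and the core protein gene Uqcrc1 of complex III, and Atp5a1, Atp5b, Atp5g3 and Atp5j of complex V. Atp5a1 and Atp5b encode the alpha and beta subunits of the catalytic head.

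Atp5b read 408, 390 and 384 FPKM in stage 3 of the culture set, against 664 and 672 FPKM in stage 1 (log2 difference -0.76 ± 0.21 SE, limma adjusted p = 0.00890). Atp5b in the precursor set read 151, 123 and 120 FPKM in stage 3, against 243, 236 and 259 FPKM in stage 1 (-0.90 ± 0.19, limma adjusted p = 0.000735). The stage 3 libraries lay close together in the culture set, and the groups did not overlap in either set. Uqcrq showed the largest fall among called members with at least 10 FPKM in the culture set, by 1.31. Among called members of the precursor set, the largest falls were those of Cox7c (1.72), Atp5k (1.61), Ndufa12 (1.54), Cox5b (1.42) and Cox7a2 (1.35). Cox7c, a small complex IV subunit, read 520, 157 and 176 FPKM in stage 3, against 844, 862 and 713 FPKM in stage 1. The low values were the 2 stage 3 libraries high in Mir682, and the remaining library lay between them and stage 1.

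The Mir682 split touches the whole comparison in the precursor set. No stage 1 library was high in Mir682 and 2 of 3 stage 3 libraries were. With high Mir682 as a term the count of members called lower was 8 and the median -0.45, and with the 4 libraries high in Mir682 left out it was 1 and -0.46, with a single stage 3 library left. Scaling to the upper quartile, which moved the median of all genes to 0.002, left 22 members lower with a median of -0.43, and turned the calls over all genes from 611 higher and 2349 lower into 1171 higher and 1307 lower. Quantile normalization left 21. Without NKT-3 library 5 the count was 32. In the culture set the count was 4 without NKT-1 library 1, without NKT-1 library 2 or without NKT-3 library 1, and 18 without NKT-2 library 5 of the other set. The test of the difference between sets in this contrast called 0 members, where limma called 0.317% of all genes. At an unadjusted p under 0.05 there were 10 members. Of all 11663 genes, 1012 were under it.

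Stage 2 against stage 1 gave 0 called members in each set by limma, beside 0.214% of all genes in the culture set and 0.489% in the precursor set. At an unadjusted p under 0.05 there was 1 member in the culture set and 24 in the precursor set. Of all 11663 genes, 499 and 1379 were under it. The median log2 difference was 0.03 in the culture set and -0.36 in the precursor set, against -0.05 and -0.16 for all genes. In the precursor set 82 of 84 members lay below 0, as did 8222 of all 11663 genes. The members' median there was 0.01 without the 4 libraries high in Mir682. When NKT-2 library 5, the stage 2 library with low Mir682, was left out, 9 members were called lower.

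Of the complex II genes, some passed the test in stage 3, and the common isoforms far outweighed the tissue isoforms. Sdhb, the iron-sulfur subunit of succinate dehydrogenase, averaged 87.7 FPKM in stage 3 of the culture set, against 142 FPKM in stage 2 (log2 difference -0.68 ± 0.19 SE, limma adjusted p = 0.0128). Against stage 1 in the precursor set, Sdhb fell by 0.94, Sdhc by 0.65 and Sdhd by 0.87. Sdha, the flavoprotein, differed by -0.41 ± 0.22 there and did not pass (limma adjusted p = 0.179). Of the isoform families, Cox4i1, Cox6a1, Cox6b1 and Cox8a were at 102 FPKM or more in every library. Their heart, lung, testis or muscle counterparts Cox4i2, Cox6a2, Cox8b and Cox8c missed the limit, and Cox6b2 (testis) and Cox7a1 reached at most 5.71 and 10.8 FPKM, with libraries listed at 0. The 3 genes of the rotor c subunit, which share the mature protein, were all expressed. Atp5g3 made up 42.8% to 58.2% of their summed FPKM in the culture set and 20.5% to 37.4% in the precursor set. All 3 were called lower in stage 3 than in stage 1 in the precursor set, by 1.30 for Atp5g1, 0.94 for Atp5g2 and 0.88 for Atp5g3.

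Few members were called between DN1eP-NKT cells and the mean of the thymic stages, which themselves differ. By share of total FPKM, given above, the DN1eP-NKT libraries lay above all stage 3 libraries of the culture set and overlapped stages 1 and 2. Against the mean of the 3 thymic stages in the culture set, 3 of 84 members were called higher and 0 lower, beside 13.5% of all genes higher and 9.11% lower, with a median log2 difference of 0.08. The 3 were Uqcr11 of complex III, Atp5d of complex V and Ndufa7 of complex I. Uqcr11 read 123, 163, 199 and 226 FPKM in DN1eP-NKT cells, against 56.1 to 204 FPKM in the 9 thymic libraries, with a median of 123 FPKM (0.66 ± 0.21 SE, limma adjusted p = 0.0253). Atp5d read 162, 253, 220 and 254 FPKM in DN1eP-NKT cells, against 119 to 181 FPKM in thymic cells, with a median of 152 FPKM (0.58 ± 0.17, limma adjusted p = 0.0150). Both groups overlapped in their ranges, and 0 members had every DN1eP-NKT library above every thymic library, beside 6.46% of all genes. Sdha was the member whose DN1eP-NKT libraries all lay below all thymic libraries, at 67.4, 69.8, 56.1 and 67.3 FPKM, against 72.6 to 101 FPKM, an order seen for 4.62% of all genes, and it did not pass (-0.42 ± 0.16, limma adjusted p = 0.0599).

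These calls were few and moved with single libraries. Without DN1eP-NKT library 4 there were 0, without DN1eP-NKT library 2 or 3 or NKT-1 library 2 there was 1, and without DN1eP-NKT library 1 or DN1eP library 1 there were 5. Quantile normalization gave 4 members higher and 5 lower, and turned the calls over all genes from 1575 higher and 1062 lower into 1451 higher and 1559 lower. All 7 stromal markers, Col1a1, Col1a2, Col3a1, Fn1, Cxcl12, Pdgfrb and Sparc, were detected in every DN1eP-NKT library. Their sum was 73.3 to 383 FPKM there, against 0.0762 to 1.01 FPKM in thymic cells of the culture set, and its part in the member levels was not tested.

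Many complex I, IV and V genes stood higher in the mean of the 3 thymic NKT stages than in DN1eP precursors, while no complex II gene passed the test. By share of total FPKM in the precursor set, complex V took 1.275% to 1.399% in stage 1 and 0.98% to 1.34% in stage 2. Stage 3, at 0.72% to 0.96%, overlapped DN1eP, at 0.79% to 0.95%. Stage 3 also overlapped DN1eP for complex I (0.89% to 0.94%, against 0.62% to 0.89%) and complex IV (0.55% to 0.68%, against 0.45% to 0.60%). In the precursor set 36 of 84 members were called higher in thymic NKT cells and 2 lower, beside 14.4% of all genes higher and 20.8% lower, and the median log2 difference was 0.39, against -0.05 for all genes. By complex, 19 of 36 subunits of complex I were higher, 0 of 4 of complex II, 2 of 8 of complex III, 7 of 11 of complex IV and 7 of 15 of complex V. The libraries of both groups overlapped for most: Ndufb7 and Ndufv1, 2 members in all, had every thymic library above every DN1eP library, beside 2.28% of all genes. Quantile normalization turned the calls over all genes from 1684 higher and 2428 lower into 2310 higher and 2102 lower, and left 42 members higher and 3 lower.

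Ndufb7, an accessory subunit of complex I, showed the largest called rise. It read 241 to 329 FPKM in the 9 thymic libraries, with a median of 284 FPKM, against 192, 63.6, 128 and 176 FPKM in DN1eP (log2 difference 1.13 ± 0.21 SE, limma adjusted p = 0.000166). Cox8a, a complex IV subunit, read 202 to 358 FPKM in thymic cells, with a median of 324 FPKM, against 224, 118, 102 and 187 FPKM in DN1eP (0.95 ± 0.18, limma adjusted p = 0.000205). Atp5j, Ndufb8 and Cox5a rose by 1.05, 1.02 and 0.95. The complex II genes had log2 differences of 0.02 for Sdha, 0.24 for Sdhb, -0.29 for Sdhc and -0.10 for Sdhd. Cox7a2l again went the other way: it read 233 to 358 FPKM in thymic cells, with a median of 283 FPKM, against 507, 437, 414 and 399 FPKM in DN1eP (-0.57 ± 0.13, limma adjusted p = 0.00120), and the groups did not overlap, as for 4.15% of all genes in that direction. Atp5sl, a low gene that is no subunit of the chain, was the other member called lower (-0.46 ± 0.18, limma adjusted p = 0.0468).

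The size of this difference depended on the DN1eP library. Over the 84 members, the median of thymic stages minus DN1eP was 0.14 for DN1eP library 1, against 0.48, 0.52 and 0.34 for libraries 2, 3 and 4. Library 1 is the DN1eP library with a precision like that of the thymic libraries, given above. With it as the only DN1eP library, an alternative added after seeing the data, 0 members were called higher and 1 lower, and with high Mir682 as a further term 6 were higher and 0 lower. In that fit the lone library is assumed to vary like the other groups. A group of 1 library also has less power than a group of 4, and no other DN1eP library was tried alone. The median log2 difference of the members was 0.14 with library 1 alone and 0.37 with the Mir682 term too. Without DN1eP library 3 there were 23 higher and 2 lower. The myeloid markers Lyz2, Mpo, Csf1r, Itgam and Cd68 summed to 0.405 to 66.5 FPKM in the thymic libraries, against 273 FPKM in DN1eP library 1 and 23.8 to 34.0 FPKM in DN1eP libraries 2 to 4, mostly from Mpo. B cell markers summed to 0.0675 to 136 FPKM in thymic cells, against 21.2 to 48.7 FPKM in DN1eP. Of these markers, Cd79a read only 0 to 0.0434 FPKM in DN1eP, so the sum there came from others of the list. Proliferation markers summed to 117 to 206 FPKM in thymic stages 1 and 2 and 22.3 to 25.5 FPKM in stage 3, against 13.7 to 29.2 FPKM in DN1eP. The part of these markers and of precision was not tested.

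**Figure D4:**
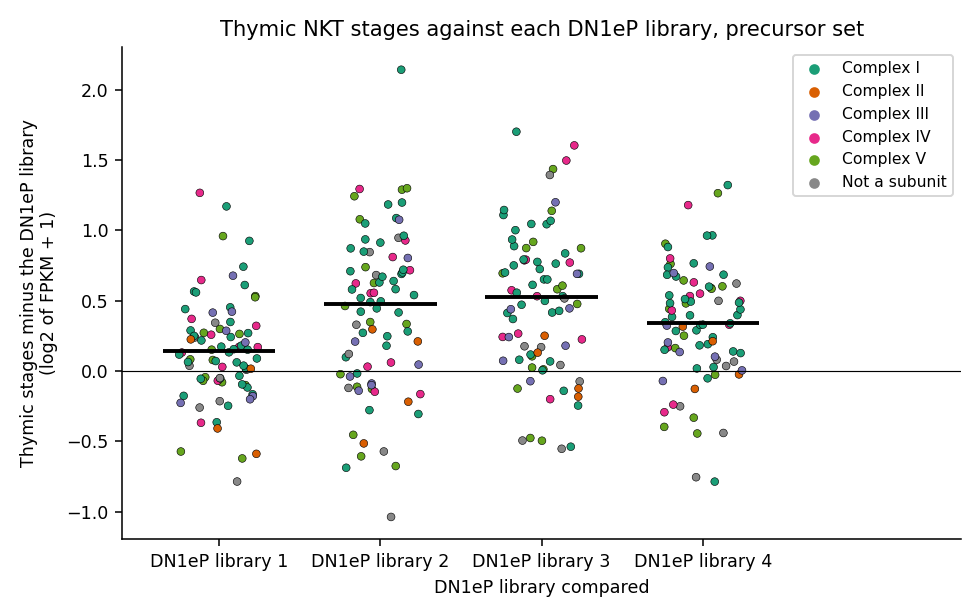
Mean of the 3 thymic stages minus each DN1eP library of the precursor set, as a difference of log2(FPKM + 1), for 81 of the 84 members, with Ndufs5, Cox7a1 and Cox6b2 left out. Points are genes coloured by complex and bars are medians over all 84 members; the bar is at 0.14 for library 1 and at 0.34 to 0.52 for the others.

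DN1eP-NKT and DN1eP were never in the same set, so they could be compared only through the thymic stages of their own sets, assuming that the set difference is the same for all cells. On that footing 23 of 84 members were called higher in DN1eP-NKT cells and 1 lower, beside 15% of all genes higher and 16.6% lower, with a median of 0.45. The largest were Ndufb7 (1.56 ± 0.30 SE, limma adjusted p = 0.000294), Uqcr11 (1.49), Ndufaf2 (1.43), Atp5d (1.37) and Ndufb8 (1.14). Cox7a2l was the member called lower, by 0.82 (limma adjusted p = 0.00140). This comparison uses the DN1eP libraries discussed above: with DN1eP library 1 alone, 2 members were higher and 2 lower.

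Set against each other, the library sets gave more called members than any comparison inside them. For the thymic stages, 13 members were called higher and 60 lower in the culture set than in the precursor set, where 52.3% of all genes were higher and 20.3% lower. Without overlap between the sets, 7 were higher and 30 lower, beside 30.3% and 5.7% of all genes. The median of the members was -0.93, against 0.50 for all genes, and it ran from -1.30 in complex I to -0.57 in complex V. Ndufc1 averaged 81.9 FPKM in thymic cells of the culture set and 413 FPKM in those of the precursor set, while Cox5a, a complex IV subunit, averaged 277 FPKM and 55.0 FPKM. Members called lower had a median transcript length of 627 bases and those called higher 984 bases, beside 2085 bases for the 9966 tested genes with a length in GENCODE. Upper-quartile scaling, which moved the median of all genes to 0.12, gave 7 members higher and 70 lower, and turned the calls over all genes from 6095 higher and 2365 lower into 4797 higher and 3830 lower. The labels name 2 library kits without saying which library had which, so a kit cannot be told apart from the set, and levels are comparable only inside a set.

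**Figure D5:**
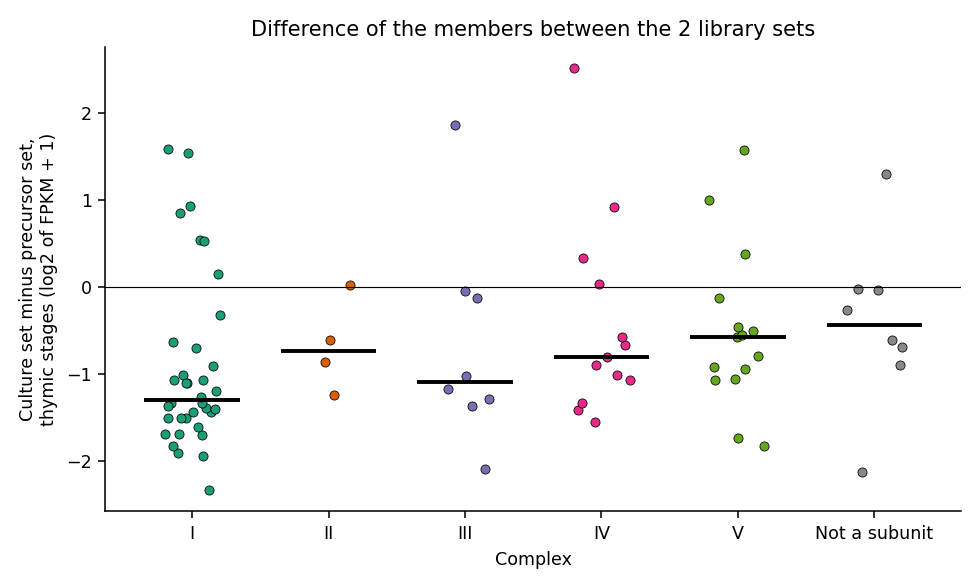
Culture set minus precursor set for the thymic stages, as a difference of log2(FPKM + 1), for the 84 members by complex. Points are genes and bars are medians; the median is -1.30 in complex I and -0.57 in complex V, and 17 members lie above 0.

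Lists of genes around the chain held 0 genes called higher in stage 3 than in stage 2 by limma and some called lower. Of all genes, 12.9% were called lower in the culture set and 7.89% in the precursor set. Of 76 mitochondrial ribosome genes, 17 were called lower and 0 higher in stage 3 than in stage 2 of the culture set, and 8 lower and 0 higher in the precursor set, with medians of -0.44 and -0.39. The largest falls were in Mrps28 (1.25) and Mrps6 (1.03) in the culture set and Mrps5 (1.46) in the precursor set. Of 19 genes of the tricarboxylic acid cycle and pyruvate entry, 3 were lower in each set and 0 higher, near the share of all genes in the culture set. They were Cs (citrate synthase), Idh3a and Mdh2 in the culture set, and Fh1, Pdha1 and Suclg1 in the precursor set. Of 28 further assembly factors, 3 and 1 were lower and 0 higher, both below the share of all genes. Foxred1, a complex I assembly factor, was lower in both sets, by 0.88 and 1.13.

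Coq7 and Cox10, which act in coenzyme Q and heme a synthesis, fell by 1.80 and 1.32 in the culture set. Among 17 genes for electron carriers, coenzyme Q synthesis and related steps, 5 were lower in stage 3 than in stage 2 of the culture set and 2 in the precursor set, and 0 were higher; the shares of all genes are those given for the mitochondrial ribosome. Atpif1, which encodes the inhibitor of ATP synthase, averaged 17.8 FPKM in stage 3 of the culture set, against 60.4 FPKM in stage 2 (log2 difference -1.68 ± 0.27 SE, limma adjusted p = 3.73e-05). Its precursor-set average was 66.3 FPKM, against 181 FPKM in stage 2 (-1.45 ± 0.29, limma adjusted p = 0.000920). In DN1eP-NKT cells Atpif1 averaged 94.5 FPKM, against a mean of 55.4 FPKM over the thymic stages (0.95 ± 0.21, limma adjusted p = 0.00138). It was the gene of this list called in that comparison. Its DN1eP-NKT libraries ran from 66.1 to 126 FPKM, against 97.3 and 106 FPKM in stage 1, 35.3 to 79.1 FPKM in stage 2 and 13.4 to 22.5 FPKM in stage 3, so that the DN1eP-NKT libraries overlapped those of stages 1 and 2 and lay above those of stage 3.

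Of 21 tested regulators of mitochondrial biogenesis, 0 were called in stage 3 against stage 2 of the culture set by limma and 1 in the precursor set, Tfb1m, a mitochondrial rRNA methyltransferase, which fell by 0.89. Nrf1 differed by -0.34 ± 0.20 SE and -0.39 ± 0.21, and Gabpa by -0.28 ± 0.27 and -0.26 ± 0.29, and neither passed. Of these regulators 1 was called higher and 1 lower in DN1eP-NKT than in thymic cells, and 3 higher and 3 lower in thymic cells than in DN1eP. Myc, a growth regulator, was higher in DN1eP-NKT than in thymic cells (0.84 ± 0.26, limma adjusted p = 0.0181) and higher in thymic cells than in DN1eP (1.20 ± 0.25, limma adjusted p = 0.000669). Polg2, a subunit of the mitochondrial DNA polymerase, and Gabpb1, a partner of GABPA, were lower in thymic cells than in DN1eP. Their log2 differences were -2.59 ± 0.47 and -2.02 ± 0.40 (limma adjusted p = 0.000219 and 0.000504), and for both genes the libraries of the groups overlapped. Tfam, which packages mitochondrial DNA, was called lower in DN1eP-NKT than in thymic cells (-0.41 ± 0.14, limma adjusted p = 0.0399) and higher in thymic cells than in DN1eP (0.54 ± 0.14, limma adjusted p = 0.00385). Esrra and Ppargc1b were low, at a mean of 9.68 and 1.57 FPKM over the culture set, and were called in none of the stage comparisons. In the precursor set they averaged 0.53 and 1.28 FPKM in thymic cells. Changes at that level are compressed by log2(FPKM + 1), so the lack of a call there says little. Against DN1eP, 33 of the 76 mitochondrial ribosome genes were higher in thymic cells and 2 lower, beside 14.4% of all genes higher and 20.8% lower. Of the 19 genes of the tricarboxylic acid cycle, 2 were higher and 2 lower, both below those shares. These lists were not refitted with DN1eP library 1 as the only DN1eP library. For the members, that setting moved the median log2 difference from 0.39 to 0.14 and also lowered the power.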

How the data were processed

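RNA sequencing values came from 26 libraries, as FPKM that the authors deposited for each library. Reads were aligned with TopHat2 2.0.6 and quantified with Cufflinks 2.1.1 on mm9, per the submitters' processing notes; no source used here names the annotation. Read totals are not in the files, so the deposited interval around each FPKM stood in for depth. Rows of the same symbol were summed; symbols absent from any file (86) or failed in any (13) were dropped. Genes with at least 1 FPKM in at least 4 libraries were fitted with limma 3.58.1 in R 4.3.3 (trend and robust settings) on log2(FPKM + 1), with a mean for each group and library set, and p-values were adjusted by Benjamini-Hochberg over all 11663 genes at 0.05. The fit was also run on simulated data with independent noise and the same spread in every library. That simulation had no Mir682 split, no correlated libraries and no difference in precision, so it does not cover these features. Figures were drawn with matplotlib 3.10.9.

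The members, lists and library sets were chosen with earlier results of these data known. Named genes were the complex II genes, isoform groups, the extremes of each complex, up to 5 called members per direction and comparison at a mean of 10 FPKM or more, those called in both sets, members near the limit, those that are no subunits and, of the lists, up to 3 called genes. Ndufv1, and the genes whose value in each library is printed, were picked after their values were seen. Alternatives were another pseudocount, filter, scaling, symbol rule, separate fits, a replicate block and libraries left out. Those on Mir682 and on DN1eP library 1 were chosen after seeing the data. The labels do not say what a replicate number stands for.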

Additional observations from a re-analysis of the deposited data

Results flagged for a closer look

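In groups of 4 libraries, the highest or lowest library was checked for a gap to the others that is large for the range of the group, over 45 named genes and the members' share of total FPKM, each in 3 groups, which gave 138 checks. Chance flags about 1 check in 20, and 9 were flagged. DN1eP library 1 stood above the other DN1eP libraries for Atp5j (447.7 FPKM, against 198 to 227 FPKM), Cox6c (824.6 FPKM, against 487 to 536 FPKM) and Sdha (201.7 FPKM, against 112 to 116 FPKM). It is also the DN1eP library with the narrowest deposited intervals. Library 4 of stage 2 stood above the other culture-set libraries of that stage for Ndufa7 (179.2 FPKM, against 112 to 122 FPKM) and Ndufb7 (229.5 FPKM, against 141 to 153 FPKM). Library 1 of stage 2 stood below them for Cox6b1 (370.8 FPKM, against 496 to 511 FPKM) and Sdhd (86.81 FPKM, against 111 to 115 FPKM). DN1eP-NKT library 1 stood below its group for Atp5b (424.3 FPKM, against 567 to 587 FPKM), and DN1eP-NKT library 2 read 0.003623 FPKM for Ndufs5, against 48.5 to 56.0 FPKM in the others.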

How the results depend on the processing

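Counts of members called moved by over 1.5 times in the following settings, and the cause was not tested. For stage 3 against stage 1 of the precursor set (52), upper-quartile scaling gave 22, quantile normalization 21, the replicate block 28, leaving out the 4 libraries high in Mir682 1, and Mir682 as a term 8. The culture set (11) gave 7 with no filter on low values, 7 with upper-quartile scaling, 7 without library 1 of DN1eP, DN1eP-NKT, NKT-1 and NKT-2 together, 25 with quantile normalization and 22 with a separate fit. For stage 3 against stage 2 of the culture set (16), quantile normalization gave 29 and a separate fit 30. The precursor set (7) gave 4 with no filter, 3 with upper-quartile scaling, 3 with a separate fit, 14 with the replicate block, 14 without the library 1s, 1 without the pair of libraries with B cell transcripts, 0 without the 4 libraries high in Mir682 and 15 with Mir682 as a term. For DN1eP-NKT against thymic stages (3), quantile normalization gave 9, the replicate block 1 and leaving out the library 1s 5. For thymic stages against DN1eP (38), DN1eP library 1 alone gave 1, and 6 with Mir682 as a term. For DN1eP-NKT against DN1eP (24), the values were 38 without the library 1s, 39 without the 4 libraries high in Mir682, 43 with Mir682 as a term, 4 with DN1eP library 1 alone and 13 with both. The replicate block gave 45 for the culture against the precursor set (73). With one library left out at a time, counts ran from 32 to 57 and 4 to 18 for stage 3 against stage 1 in the precursor and culture set, 0 to 13 and 11 to 21 for stage 3 against stage 2, 0 to 9 and 0 to 0 for stage 2 against stage 1, 0 to 0 for the difference between sets, 0 to 5 for DN1eP-NKT against thymic stages, 25 to 41 for thymic stages against DN1eP, 17 to 35 for DN1eP-NKT against DN1eP and 69 to 73 between sets. Of single genes, Atp5sl reversed in thymic stages against DN1eP, to 0.0377 with DN1eP library 1 alone and 0.0109 with Mir682 as a term too. Over named genes, 1995 values under the alternatives listed first in the methods kept their direction and side of the threshold and 149 lost the call. These values include leaving out libraries that the comparison concerned does not use, so they overstate stability. With high Mir682 as a term, 33 values kept both and 9 lost the call. The other alternatives chosen after seeing the data leave at least 1 group with a single library and are not counted here. The values above therefore do not show how the calls hold under them. Replicate numbers are not taken to pair libraries: deviations from the group means correlated over 0.1 in 7 of 16 same-numbered pairs of the culture set and 0 of 8 of the precursor set, and 7 of 13 and 0 of 10 libraries correlated best with their own number. Library 1 of DN1eP-NKT, of stage 1 and of stage 2, which share narrow intervals, correlated at 0.431 to 0.484 with each other. Wide deposited intervals, in DN1eP libraries 2 to 4 and in most of the culture set, limit precision there.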
